A study of Sus scrofa with 2 samples.

Results

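A set of 7 loci of the pig genome that carry an Ensembl identifier but no gene symbol were examined across the cell types of the pig renal cortex. They are ENSSSCG00000048856, which had the most unique molecular identifiers (UMIs) of all rows, and 6 rows that stood among the leading rows of 1 cluster of nuclei each. The clusters were of endothelial cells (EC) for ENSSSCG00000050944, the loop of Henle (LOH) for ENSSSCG00000042676 and the distal convoluted tubule (DCT) for ENSSSCG00000033204. For ENSSSCG00000050402 it was the connecting tubule (CNT), for ENSSSCG00000044270 1 cluster of the proximal tubule (PT) and for ENSSSCG00000046576 principal cells of the collecting duct (PC). The 7 loci are among 14532 rows without a symbol, of 31908 rows in all, and none of the 7 had a name in the tables of identifiers used here. All 7 were chosen by their level in these same libraries. Their abundance and their order of classes are therefore given as descriptions, without a test.

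The UMI counts came from single-nucleus RNA sequencing of 1 unperfused and 1 perfused library of pig renal cortex. Kidneys from a slaughterhouse were flushed with heparinised saline and stored at 4 °C for about 2 h, and normothermic machine perfusion then ran at 37 °C and 100 mmHg with raised glomerular pressure and hyperfiltration. The unperfused cortex was taken before perfusion (0 min) and the perfused cortex 120 min after its start, so time, temperature and pressure changed together and cannot be told apart. With 1 library per condition no difference between the libraries could be tested, and neither strain, age nor whether both pieces came from 1 animal was stated in the sources used here. Every interval below is a 95% interval that covers counting error only, from the exact Poisson or binomial distribution, and the limit that a count of 0 allows is set at 3 counts of the total.

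A gene model without a symbol can be a protein-coding gene that has not been matched to a named relative, a long non-coding RNA, or a piece of a longer transcript. Many long non-coding RNAs stay in the nucleus and are expressed in fewer cell types than most coding genes. Sequencing of nuclei captures such RNA and unspliced RNA with intronic reads, and in a genome with sparse annotation part of these reads falls on unnamed models. Along the nephron, PT cells reclaim most of the filtrate, the thick ascending limb of the LOH takes up salt through SLC12A1, the DCT through SLC12A3, the CNT handles sodium and calcium, and principal cells take up water through AQP2.

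After filters on detected genes, mitochondrial share and doublets, 6389 unperfused and 5421 perfused nuclei remained, with 26691180 and 27107290 UMIs. Their medians were 3755 and 4383 UMIs per nucleus, and 14 barcodes occurred in both libraries, of which 8 were kept. The nuclei formed 20 clusters, clustered without the 7 rows, and 16 of these were joined into 12 classes named after the cell type whose fixed markers they carried, while 4 clusters (11, 13, 14 and 17) stayed unnamed. A class name here means nuclei like that cell type. The defining markers were present in each leading class, at 7854 and 9119 counts per 1000000 UMIs (CPM) for SLC12A1 in LOH, 1264 and 1294 for PECAM1 in EC, 1034 and 590 for SLC12A3 in DCT, 14738 and 16129 for SLC8A1 in CNT, 3595 and 3777 for LRP2 in PT and 990 and 993 for AQP2 in PC, each unperfused then perfused. Class sizes differed between the libraries, with 517 and 223 CNT, 273 and 148 DCT and 299 and 851 immune (IMM) nuclei. Levels are UMIs of a row per 1000000 UMIs of the class. They are not per transcript length, so no level of 1 locus was compared with that of another.

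Over all barcodes ENSSSCG00000048856 held 2200724 unperfused and 1767963 perfused UMIs, which is 6.39% and 4.98% of all UMIs. The row with the next highest count, ZBTB20, a transcriptional repressor of the zinc finger family, had 109821 and 124660. All rows without a symbol together held 14.2% and 12.2% of UMIs, and this row supplied 45.1% and 40.7% of that sum. It was counted in every kept nucleus of both libraries, in all classes.

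Its share was not even across the nephron. In CNT it stood at 120543 CPM unperfused and 95764 CPM perfused, and in DCT at 116278 and 97142 CPM, so CNT came first in the unperfused library by a factor of 1.04 (1.03 to 1.04) and DCT in the perfused library by a factor of 1.01 (1.01 to 1.02). Next were podocytes at 83572 and 63912 CPM and PC at 82882 and 71028 CPM, whose intervals overlapped in the unperfused library, while in the perfused one PC stood above podocytes and podocytes overlapped with IC-A, the type A intercalated cells. Intercalated cells of both types lay between 63584 and 78492 CPM. LOH reached 68605 and 61332 CPM, stroma 54903 and 43538, EC 48374 and 42131 and PT 47141 and 37839. IMM was lowest of the named classes in both libraries, at 30359 and 28702 CPM. The late distal tubule thus held the highest level in both libraries. Which of CNT and DCT came first changed between them, and this order depended on the processing, as the closing section states.

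**Figure D1:**
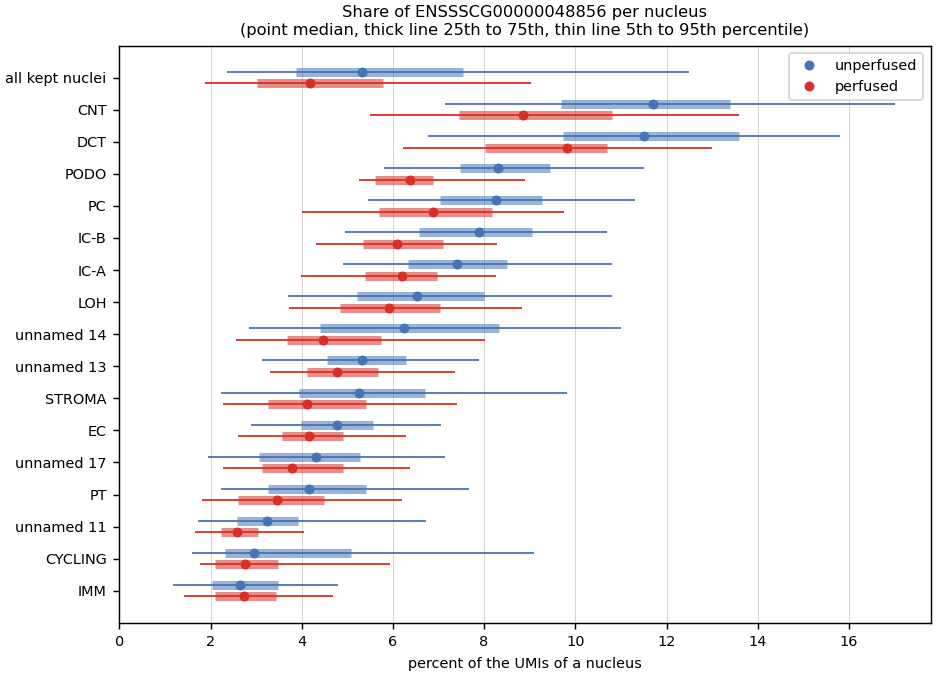
Percent of a nucleus's UMIs that fell on ENSSSCG00000048856 (x axis) by class or unnamed cluster (y axis), for unperfused and perfused nuclei; points are medians, thick lines the 25th to 75th and thin lines the 5th to 95th percentile over nuclei. The medians of CNT are 11.7% and 8.86% and those of DCT 11.5% and 9.81%, against 4.17% and 3.45% in PT.

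CNT and DCT also had the highest median shares per nucleus, although other classes changed places: the cycling class lay below EC and PT, at 2.96% unperfused, where its summed level was above both. Over all classes the median nucleus gave 5.32% of its UMIs to ENSSSCG00000048856 without perfusion and 4.19% with it, with a 5th to 95th percentile of 2.37% to 12.5% and 1.89% to 9.02%. The lowest nucleus of each library gave 0.646% and 0.431% and the highest 22.2% and 19.5%. Within a class the share moved with depth: with PT nuclei split by UMI count into 4 equal sets, the unperfused share was 3.72, 4.32, 4.92 and 5.09% from the shallowest to the deepest, and the perfused share 3.28, 3.31, 3.71 and 4.17%. In CNT the corresponding shares were 9.95, 11.9, 12.4 and 12.6% and 7.88, 8.89, 9.9 and 10.2%, while in EC they stayed between 4.03% and 5.01% in all 8 sets. Barcodes removed for mitochondrial UMIs above 7% (5 unperfused, 10 perfused) held a lower share, 1.95% and 1.16%, and called doublets nearly the share of kept nuclei, 6.37% and 5.04%.

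The level of ENSSSCG00000048856 was lower in the perfused library over all kept nuclei, 50171 against 64365 CPM (log2 ratio -0.36), and was lower by summed counts in 16 of 16 classes. The log2 ratio ran from -0.73 in the cycling class, with 35 and 18 nuclei, to -0.08 (-0.10 to -0.06) in IMM, and was -0.33 (-0.34 to -0.32) in CNT and -0.16 in LOH. In IMM the median share per nucleus was 2.65% unperfused and 2.74% perfused, so by nuclei rather than by sums that class did not share the direction. Mitochondrial transcripts made up 0.114% and 0.301% of UMIs and ribosomal protein transcripts 0.425% and 0.602%, both higher in the perfused library when all nuclei were pooled. Within classes this did not always hold: in CNT the ribosomal share was 0.357% and 0.302%, in PT 0.313% and 0.288%, and in PC the mitochondrial share was 0.339% and 0.0953%, while in IMM both were higher, 0.82% and 1.85% mitochondrial and 2.05% and 2.95% ribosomal. Their part in the lower share of ENSSSCG00000048856 was not tested. A row with so large a share also moves the denominator of every CPM value, and totals without it and the mitochondrial genes are among the alternatives in the closing section.

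The named rows whose levels over classes were most like those of ENSSSCG00000048856 were FRRS1, CARF, PPFIA3, SRSF12 and NR3C2, with Pearson correlations of 0.837, 0.814, 0.809, 0.803 and 0.800 over 31 points. Each point is a class or unnamed cluster in 1 library with at least 20 nuclei, on a log2 scale of CPM plus 5, and the points share libraries and depth, so these values only describe likeness. NR3C2, the mineralocorticoid receptor that mediates the aldosterone response of the distal nephron, stood at 2392 and 2880 CPM in CNT. Of 7 well known abundant nuclear RNAs (MALAT1, NEAT1, MEG3, XIST, KCNQ1OT1, GAS5 and SNHG14), none is a symbol in these files, so their levels were not compared with that of this row.

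The feature table follows chromosome order, as 98.1% of 14473 consecutive pairs of symbol-matched rows on 1 chromosome ascend, so neighbouring rows were looked at for each locus, a choice made after the files were seen. The row directly after ENSSSCG00000048856, ENSSSCG00000041050, had 23908 UMIs in all and a pattern over classes that correlated at 0.896 with that of ENSSSCG00000048856. Its CNT level was 1009 CPM unperfused and 627 CPM perfused (log2 ratio -0.69, -0.80 to -0.57), and its ratio was below 0 in 16 of 16 classes, from -2.70 to -0.18. The next row, ENSSSCG00000044913, with 15389 UMIs, was highest in PT instead, and its correlation with ENSSSCG00000048856 was -0.048.

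ENSSSCG00000050944 was the row with the largest difference between EC and all other nuclei in both libraries, with log2 differences of 6.17 and 5.10 over the rest. It reached 2234 CPM (2177 to 2291) in unperfused EC and 2875 CPM (2802 to 2949) in perfused EC, from 5942 and 5932 UMIs in 1304 and 821 nuclei. IMM came next at 341 and 486 CPM, which put EC 6.55-fold (5.71 to 7.55) and 5.91-fold (5.54 to 6.31) above it. Of all its UMIs in kept nuclei, 90.5% lay in EC unperfused and 75.1% perfused. It was found in 78.8% and 82.2% of EC nuclei and in 2.58% and 3.16% of PT nuclei, although PT nuclei were deeper, with a median of 5291 and 6636 UMIs against 1879.5 and 2221 in EC. Thinned to 1000 UMIs per nucleus, 68.5% and 73.1% of EC nuclei held it, and the median EC nucleus had 3 and 5 of its UMIs.

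**Figure D2:**
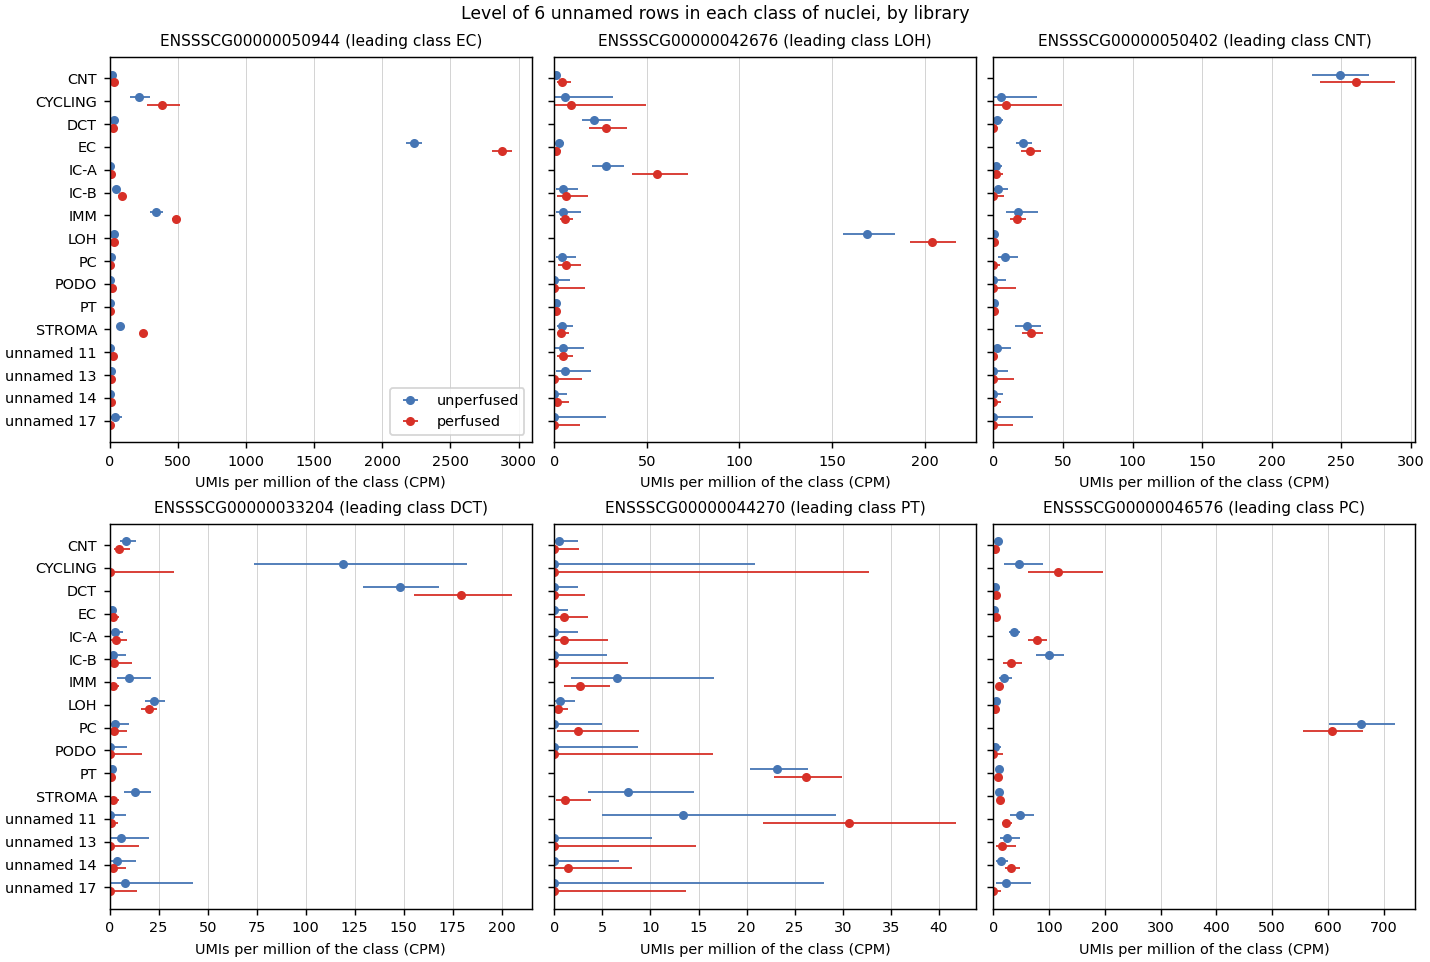
Level of 6 loci (1 panel each, x axis in CPM) in the 12 named classes and 4 unnamed clusters (y axis), with unperfused and perfused values side by side and 95% Poisson intervals that cover counting error only. Among named classes each locus is highest in the same one in both libraries, for example ENSSSCG00000050944 in EC at 2234 and 2875 CPM. In perfused unnamed cluster 11, which also holds the PT marker CUBN near its PT level, ENSSSCG00000044270 stands above its PT level.

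In the comparison of the libraries the EC level of ENSSSCG00000050944 gave a log2 ratio of 0.36 (0.31 to 0.42). EC fell into 2 clusters. In the larger, cluster 1, the level was 2241 CPM unperfused and 2990 CPM perfused (log2 ratio 0.42), and in cluster 10, led by genes such as EHD3, which marks glomerular endothelium, it was 2187 and 2273 CPM (0.06, -0.09 to 0.20). In the unperfused library the levels of the 2 EC clusters thus lay close together. In IMM and stroma the level was also higher in the perfused library: in IMM the log2 ratio was 0.51 (0.30 to 0.73) and in stroma, at 77.3 and 244 CPM from 91 and 456 UMIs, it was 1.66 (1.33 to 2.0).

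Free RNA can carry an abundant endothelial transcript into other droplets. From the levels of 4 tubular genes (LRP2, CUBN, SLC12A1 and UMOD) in nuclei that should lack them, free RNA was estimated at 29.9% and 16.3% of stromal UMIs and 29.3% and 25.6% of IMM UMIs. That estimate allowed for 86.8 of the 91 unperfused stromal UMIs of ENSSSCG00000050944 and for 88.6 of the 456 perfused ones, factors of 1.05 and 5.15. In IMM the observed count was 4.74 and 6.5 times the estimate, in PT 0.22 and 0.441 times. In stroma 4 endothelial markers were also higher in the perfused library. Their log2 ratios were 1.30 (0.99 to 1.63) for FLT1, 1.01 (0.70 to 1.33) for TEK, 0.62 (0.36 to 0.89) for PECAM1 and 0.55 (0.36 to 0.74) for EMCN. In IMM only EMCN of these 4 had an interval above 0, 0.29 (0.10 to 0.49). FLT1 was at 0.15 (-0.07 to 0.37), PECAM1 at 0.13 (-0.07 to 0.33) and TEK at -0.02 (-0.22 to 0.18). The marker EHD3 had few UMIs and lay below 0 in both classes, with intervals that include 0. It was at -0.66 (-1.61 to 0.28) in stroma, from 21 and 21 UMIs, and at -0.99 (-2.55 to 0.73) in IMM, from 6 and 11 UMIs. Per UMI of FLT1, the VEGF receptor of endothelial cells, there were 1.53 and 1.74 UMIs of ENSSSCG00000050944 in EC, 0.959 and 1.24 in IMM and 0.883 and 1.13 in stroma. The stromal level of the locus at perfusion therefore came together with FLT1 UMIs, and the part of endothelial RNA or of mixed droplets in it was not tested.

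The 5 named rows most like ENSSSCG00000050944 were PECAM1, EGFL7, TEK, CD34 and SH2D3C, at correlations of 0.948, 0.942, 0.939, 0.928 and 0.927 over the 31 points. PECAM1 is the adhesion molecule CD31 of endothelial junctions, TEK the angiopoietin receptor, EGFL7 a protein secreted by endothelium and CD34 a surface sialomucin of small vessels. In EC the level of PECAM1 was 1264 and 1294 CPM (log2 ratio 0.03, -0.04 to 0.11), of TEK 1615 and 1492 CPM (-0.11, -0.18 to -0.05) and of EMCN, which encodes endomucin, 2352 and 2107 CPM (-0.16, -0.21 to -0.10). FLT1 was at 1464 and 1655 CPM (0.18, 0.11 to 0.24). EGFL7 was at 1005 and 1286 CPM. Endothelial genes thus lay on both sides of equality between the libraries, with FLT1 and EGFL7 higher in perfused EC, as the locus was.

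The rows around ENSSSCG00000050944 were endothelial too. Between CHRM3 and ZP4 the feature table holds 17 other rows without a symbol. Of these, 13 had at least 20 UMIs and 13 of 13 were highest in EC, and the 11 with at least 200 UMIs correlated with it at 0.827 to 0.930. They were not counted alike between the libraries. In EC the fifth row before it, ENSSSCG00000041446, stood at 91 and 177 CPM (log2 ratio 0.96, 0.72 to 1.20) and the fourth row after it, ENSSSCG00000046135, at 28.6 and 56.2 CPM (0.98, 0.55 to 1.41). The row directly after it, ENSSSCG00000047253, stood at 82.7 and 56.7 CPM (-0.54, -0.88 to -0.21) and the second, ENSSSCG00000041576, at 76.3 and 58.2 CPM (-0.39, -0.73 to -0.06). The row at the second place before it, ENSSSCG00000043300, was found in 38.2% and 38.2% of EC nuclei that had a UMI of ENSSSCG00000050944 and in 14.5% and 8.9% of the 276 and 146 EC nuclei that had none. Depth differs between those nuclei and its part was not tested. Whether these rows are pieces of 1 transcript or separate genes cannot be told from counts.

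**Figure D3:**
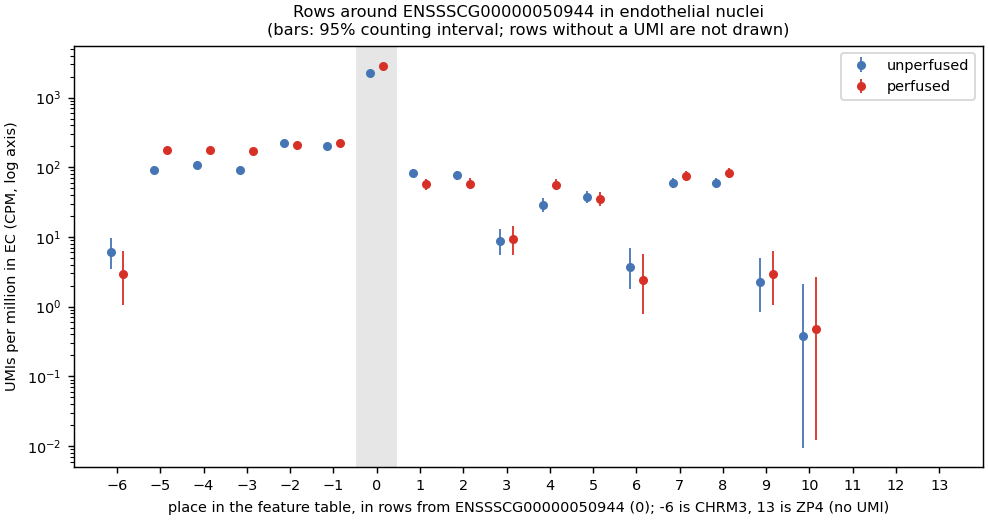
CPM in EC (y axis, log scale) of the rows around ENSSSCG00000050944 in the order of the feature table (x axis, rows from that locus), unperfused and perfused, with 95% Poisson intervals that cover counting error only. ENSSSCG00000050944 stands above all its neighbours, at 2234 and 2875 CPM, and the neighbours lie on both sides of equality between the libraries.

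ENSSSCG00000042676 was highest in LOH, at 169 CPM (156 to 184) unperfused and 204 CPM (192 to 217) perfused, from 563 and 1011 UMIs in 749 and 805 nuclei. Type A intercalated cells (IC-A), which secrete acid, came next at 28 and 55.7 CPM, giving folds over the next class of 6.04 (4.41 to 8.48) and 3.67 (2.8 to 4.89). In DCT it was at 21.7 and 27.7 CPM. It was found in 29.6% and 40.7% of LOH nuclei and in 0.393% and 0.582% of PT nuclei, and after thinning to 1000 UMIs in 13.7% and 16.7% of LOH nuclei, whose median depth was 4154 and 5754 UMIs. At equal depth the gap between the libraries in this share was thus smaller than in the unthinned one.

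The LOH held 2 clusters that differed in this locus. In cluster 2 it stood at 202 and 225 CPM and in cluster 15, led by SCN9A, HS6ST3 and the paracellular cation channel gene CLDN16, at 20.1 and 39.2 CPM. Between the libraries the log2 ratio was 0.27 (0.12 to 0.42) over LOH and 0.16 (0.00 to 0.31) in cluster 2 alone. Clustered at a resolution of 1.0, it was 0.02 (-0.15 to 0.19) in the LOH cluster with most of its UMIs, 452 and 811. In the other LOH cluster at that resolution, with 111 and 200 UMIs, it was 0.58 (0.24 to 0.93). Over all kept nuclei the level was 25.3 and 42.4 CPM (log2 ratio 0.75), a wider gap than within LOH, and LOH made up 11.7% of unperfused and 14.8% of perfused nuclei. SLC12A1, the salt carrier of this segment, had a log2 ratio of 0.22 (0.19 to 0.24) in LOH and UMOD, which encodes uromodulin, one of 0.37 (0.34 to 0.41), while KCNJ1, the apical potassium channel gene, had one of -0.59 (-0.77 to -0.42). Per UMI of SLC12A1 there were 0.0216 and 0.0224 UMIs of ENSSSCG00000042676 in LOH.

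In IC-A the counts of ENSSSCG00000042676 were 42 and 56 UMIs, and the log2 ratio was 0.99 (0.39 to 1.60). SLC12A1 was higher there too, at 78.8 and 358 CPM (2.18, 1.88 to 2.50). In IC-A the locus had 0.356 and 0.156 UMIs per UMI of SLC12A1, more than in LOH, and its counts were 13.4 and 11.1 times the estimate for free RNA. The part of LOH RNA or of mixed droplets in the IC-A counts was not tested. In DCT the corresponding factors were 1.73 and 1.31, close to the estimate, but that estimate includes UMOD, which stood at 2470 and 2919 CPM in DCT. SLC12A1, also among its genes, was at 86.1 and 177 CPM there, against 69.5 and 120 CPM in CNT. The named rows most like this locus were PDILT, GP2, USP24, TMEM207 and CLDN16, at correlations of 0.891, 0.878, 0.852, 0.844 and 0.829. PDILT lies beside UMOD in mammalian genomes, and GP2 encodes a relative of uromodulin. UMOD itself correlated at 0.766 and SLC12A1 at 0.706. In the feature table the locus stands between TOX3 and SALL1, both genes of transcription regulators, and of the 3 unnamed rows there with at least 20 UMIs 2 were highest in LOH.

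ENSSSCG00000033204 was highest in DCT, at 148 CPM (129 to 168) unperfused and 179 CPM (155 to 205) perfused, from 225 and 206 UMIs in 273 and 148 nuclei. In the unperfused library the cycling class came close, at 119 CPM from 21 UMIs in 9 of 35 nuclei, and DCT exceeded it by a factor of 1.24 whose interval, 0.795 to 2.05, includes equality. That class also held DCT markers, with 39 UMIs each of SLC12A3 and HS6ST3 (221 CPM each) unperfused, and 0 and 1 perfused. For TRPM6 it held 10 and 3 UMIs. The part of DCT-like nuclei in the cycling class was not tested. In the perfused library the cycling class had no UMI of the locus in 18 nuclei, which allows up to 26.6 CPM at 3 counts, and LOH followed DCT at 20 CPM, with a fold of 8.93 (6.99 to 11.5). A UMI was found in 39.9% and 58.8% of DCT nuclei and in 0.786% and 0.416% of PT nuclei, and after thinning in 8.86% and 14.5% of DCT nuclei. The median depth of DCT nuclei was 5554 and 7629.5 UMIs. The log2 ratio between libraries was 0.27 (-0.01 to 0.55), an interval that includes 0.

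The 3 markers of DCT went different ways. SLC12A3, the thiazide-sensitive salt carrier, was at 1034 and 590 CPM in DCT (log2 ratio -0.81, -0.94 to -0.68) and TRPM6, the magnesium channel, at 151 and 83.2 CPM (-0.86, -1.22 to -0.51), while HS6ST3, a heparan sulfate sulfotransferase gene, was at 706 and 1146 CPM (0.70, 0.58 to 0.82). TRPM6 was higher in PT than in DCT, at 387 and 396 CPM, so it did not single out DCT here. Per UMI of SLC12A3 the locus had 0.143 and 0.302 UMIs in DCT. The same HS6ST3 led cluster 15 of the LOH, and there ENSSSCG00000033204 was at 48.7 and 92.7 CPM, in 19.2% and 38.4% of nuclei, against 16.9 and 10.7 CPM in cluster 2. Cluster 15 supplied 29 of the 75 unperfused and 52 of the 99 perfused LOH UMIs of the locus, and DCT was the list with the next best marker score for that cluster. SALL3, ETV4, HS6ST3, TRIM50 and CCN5 were most like it, at correlations of 0.915, 0.915, 0.873, 0.861 and 0.859. SLC12A3 correlated at 0.841 and TRPM6 at 0.221. The locus stands between SPTLC1 and LPL in the feature table, and of 4 unnamed rows there with at least 20 UMIs none was highest in DCT.

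ENSSSCG00000050402 was highest in CNT, at 249 CPM (229 to 270) unperfused and 261 CPM (235 to 289) perfused, from 558 and 370 UMIs in 517 and 223 nuclei, with a log2 ratio of 0.07 (-0.12 to 0.26). The ratio was 0.68 with each nucleus thinned to 1000 UMIs, and 1.42 from 31 and 49 UMIs without nuclei that carried a marker of another lineage. Stroma followed at 23.8 and 27.3 CPM and EC at 21.4 and 26.2 CPM, which put CNT 10.5-fold (7.16 to 15.9) and 9.56-fold (7.12 to 13.1) above the next class. It was found in 27.9% and 35.9% of CNT nuclei, in 12.5% and 16.3% after thinning, and in 0.168% and 0.333% of PT nuclei. Its UMIs were unevenly spread, since the richest 10 nuclei of each library held 26.8% and 34.1% of them and a single nucleus up to 28 and 35. Over all kept nuclei the level was 25.3 and 19.3 CPM (log2 ratio -0.40), while CNT went from 8.09% to 4.11% of nuclei.

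This locus followed its neighbour SLC8A1 closely. ENSSSCG00000050402 is the row directly after SLC8A1, the sodium-calcium exchanger of the basolateral CNT membrane, in the feature table, and THUMPD2 is the next named row. The row directly before SLC8A1, ENSSSCG00000050296, with 454 UMIs, was also highest in CNT, at 114 and 55.8 CPM. Its pattern over classes correlated with that of the locus at 0.920. In CNT ENSSSCG00000050402 had 0.0169 UMIs (0.0155 to 0.0184) per UMI of SLC8A1 unperfused and 0.0162 (0.0146 to 0.0179) perfused. The ratio was 0.0169 and 0.0174 in EC, 0.0202 and 0.0178 in stroma and 0.0164 and 0.0158 in IMM, although the level of SLC8A1 fell from 14738 CPM in unperfused CNT to 1271 CPM in unperfused EC. Per UMI of CALB1, the calcium buffer calbindin of the CNT, the ratio ran from 0.268 in IMM to 1.4 in stroma in the unperfused library and from 0.306 to 3 over the same 4 classes in the perfused one. In both libraries the intervals of the ratio to SLC8A1 in EC, stroma and IMM overlapped that in CNT, while for CALB1 those of EC and IMM did not.

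**Figure D4:**
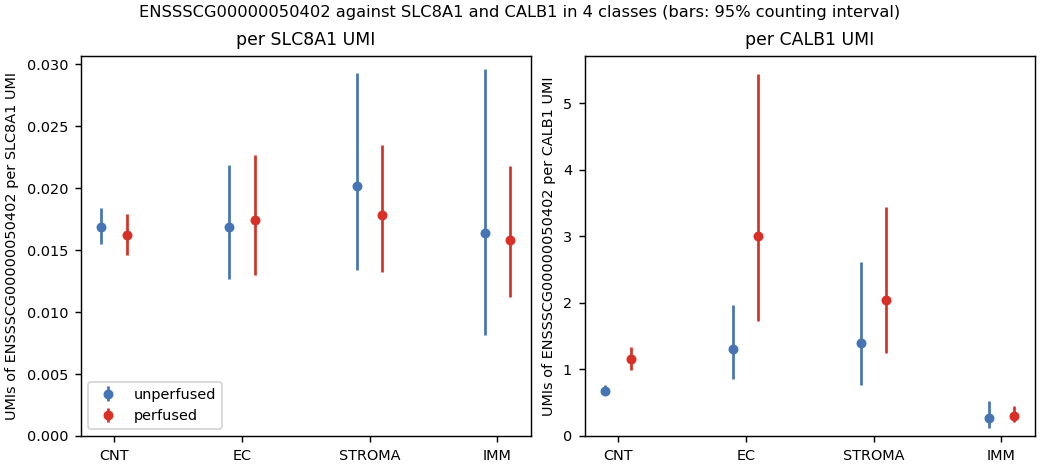
UMIs of ENSSSCG00000050402 per UMI of SLC8A1 and per UMI of CALB1 (y axes) in CNT, EC, stroma and IMM (x axis), unperfused and perfused, with 95% intervals that cover counting error only. The ratio to SLC8A1 lies between 0.0158 and 0.0202 in all 8 values, and that to CALB1 between 0.268 and 3.

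Within CNT the detection of both was compared nucleus by nucleus. Among CNT nuclei with a UMI of SLC8A1, 31.3% and 39.8% also had one of ENSSSCG00000050402, and 0 of the 57 and 22 CNT nuclei without SLC8A1 had it, which allows shares of nuclei with a UMI of up to 5.26% and 13.6%. The nuclei without SLC8A1 were shallower, with medians of 3197 and 5523 UMIs against 4061.5 and 5984, and the part of depth was not tested. With CALB1 the shares were 52.3% and 62.5%, against 17.4% and 25.2% without. With SCNN1G, a subunit of the epithelial sodium channel that marks the later CNT, they were lower, 22.7% and 33.2%, than without it, 42.5% and 50%. The like-pattern rows were SLC8A1 (0.933), CALB1 (0.846), XKR4 (0.799), PDLIM1 (0.763) and CXCL12 (0.744). Within stroma, cluster 12, led by genes such as the smooth muscle myosin MYH11, was at 48.8 and 49 CPM and cluster 6 at 16.5 and 20.5 CPM. Whether the locus and SLC8A1 overlap or share reads is not given in the sources used here, so reads of the exchanger gene and of ENSSSCG00000050402 cannot be told apart.

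ENSSSCG00000044270 was the least abundant of the 7 by UMIs. It was highest in PT, at 23.2 CPM (20.4 to 26.4) unperfused and 26.2 CPM (22.8 to 29.9) perfused, from 236 and 217 UMIs in 1781 and 1203 nuclei, and 91.5% and 79.8% of its UMIs in kept nuclei lay there. The next named class, stroma unperfused and IMM perfused, was 3.04-fold (1.57 to 6.73) and 9.81-fold (4.43 to 27) lower. In the perfused library unnamed cluster 11 stood above PT, at 30.6 CPM (21.7 to 41.8) from 39 UMIs, against 13.4 CPM from 6 UMIs unperfused. This cluster also held markers of PT. CUBN was at 5054 and 6343 CPM there, against 5208 and 5862 CPM in PT, and LRP2 at 2589 and 2979 CPM. SLC22A2 was at 381 and 499 CPM, against 129 and 173 CPM in PT. SLC5A12 was low, at 126 and 43.9 CPM against 2210 and 2053 CPM in PT. The locus was found in 8.25% and 9.23% of PT nuclei, and in 2.09% and 1.78% after thinning. In EC it was found in 0 of 1304 unperfused nuclei, which allows a share of up to 0.23%, and in 0.244% of perfused ones.

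The locus was chosen as a leading row of PT cluster 4, so its levels in the 2 PT clusters are given as a description. By its difference between PT as a whole and all other nuclei it ranked 330th of all rows unperfused and 333rd perfused. In cluster 4, led by SLC22A2, the organic cation carrier of the later proximal tubule, and ADCY8, the level was 55.8 and 72.0 CPM from 179 and 182 UMIs (log2 ratio 0.37, 0.06 to 0.67). In cluster 0, led by SLC5A12, the lactate carrier of the early convoluted part, it was 8.21 and 6.09 CPM from 57 and 35 UMIs (-0.43, -1.08 to 0.20). Over PT as a whole the log2 ratio was 0.17 (-0.10 to 0.45). Clustered at a resolution of 1.0, it was -0.15 (-0.59 to 0.28) in the PT cluster with most of its UMIs, 119 and 74. In the PT cluster with 64 and 113 UMIs it was 0.98 (0.52 to 1.44), and in the remaining PT clusters the intervals included 0. PT nuclei with a UMI of SLC22A2 held the locus in 13.1% and 17.5%, those without in 5.67% and 3.85%. As SLC22A2 leads the same cluster, this too only describes the choice of the locus. For SLC5A12 the order was turned, 8.02% and 8.61% with and 12.2% and 15.3% without. HGD, CYP27B1, HAO2, PDZD3 and SLC47A1 were most like it, at 0.912, 0.910, 0.910, 0.902 and 0.895. HGD acts in tyrosine breakdown, CYP27B1 makes active vitamin D and SLC47A1 exports organic cations into the lumen. In the feature table the locus stands between TNP1 and TNS1, and none of the 2 unnamed rows there with at least 20 UMIs was highest in PT.

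ENSSSCG00000046576 was highest in PC, at 659 CPM (602 to 721) unperfused and 607 CPM (555 to 663) perfused, from 487 and 497 UMIs in 176 and 151 nuclei, with a log2 ratio of -0.12 (-0.30 to 0.06). The next class was type B intercalated cells (IC-B), which secrete bicarbonate, at 99.4 CPM unperfused, and the cycling class at 115 CPM perfused, where all 13 UMIs lay in 1 nucleus. PC stood 6.63-fold (5.13 to 8.7) and 5.27-fold (3.05 to 9.96) above the next. It was found in 75.6% and 76.8% of PC nuclei, in 42.6% and 40% after thinning, and in 4.55% and 3.99% of PT nuclei. The median PC nucleus had 2 and 3 of its UMIs.

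AQP2, the water channel regulated by vasopressin, and ENSSSCG00000046576 were both highest in PC, but they differed in the other classes where they were counted. In PC there were 0.666 and 0.611 UMIs of the locus per UMI of AQP2, and the locus was found in 75% and 75.8% of nuclei with AQP2 and in 80% and 82.6% of those without. In CNT, AQP2 was counted in 212 and 96 nuclei with 571 and 321 UMIs, while the locus was counted in 8 and 3 nuclei, so its ratio to AQP2 was 0.035 and 0.0125. In IC-A the locus was counted in 27 and 21 nuclei, of which 0 and 1 had AQP2, in IC-B in 20 and 5, of which 2 and 0 had it, and in PT in 81 and 48, of which 2 and 0 had it. Its counts exceeded the estimate for free RNA 14.4- and 21.9-fold in IC-A and 3.73- and 6.33-fold in PT.

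Outside PC the level of ENSSSCG00000046576 differed in direction between classes. IC-B went from 99.4 to 31.1 CPM with 67 and 15 UMIs (log2 ratio -1.68), and IC-A from 36.7 to 77.5 CPM with 55 and 78 UMIs (1.08). In both classes the share of nuclei with a UMI had intervals that overlapped between the libraries, also after thinning. In PC itself the locus had a log2 ratio of -0.12 (-0.30 to 0.06). The markers of PC had ratios there of 0.00 (-0.14 to 0.15) for AQP2, 0.22 (0.08 to 0.37) for SCNN1G and 0.36 (0.20 to 0.52) for FXYD4, a regulator of the sodium pump. AQP2 had 0 and 4 UMIs in IC-A and 7 and 0 in IC-B, too few to set beside the locus in those classes. The most like rows were ATP10B, ELF3, GREM1, TSPAN1 and LEPR, at correlations of 0.775, 0.758, 0.757, 0.756 and 0.751. The row directly after it, ENSSSCG00000046733, was also highest in PC, at 356 CPM unperfused and 192 CPM perfused (log2 ratio -0.89, -1.19 to -0.60), and correlated with it at 0.871. Both stand between CCSER2 and GRID1.

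Across the 7 loci, 6 had the same first class in both libraries, the exception being ENSSSCG00000048856, whose order of CNT and DCT depended on the processing. In 3 of 7, namely ENSSSCG00000050944, ENSSSCG00000050402 and ENSSSCG00000046576, the first class was at least 4 times the next in both libraries. Of 13366 rows with at least 200 UMIs, 3.9% met that rule, and since the loci were chosen for their class levels nothing is read from the difference. Among rows without a symbol 110 of 2334 did (4.71%) and among rows with one 411 of 11032 (3.73%). By class, PT had 45 such unnamed rows and 150 with a symbol (1.93% and 1.36%), EC 13 and 9 (0.557% and 0.0816%) and LOH 10 and 13 (0.428% and 0.118%). PC had 5 and 15 (0.214% and 0.136%), and CNT and DCT each 4 and 4 (0.171% and 0.0363%). Podocytes had 17 and 101 (0.728% and 0.916%), the cycling class 2 and 65 (0.0857% and 0.589%) and IC-B 1 and 16 (0.0428% and 0.145%). Neighbouring rows, such as the EC rows around ENSSSCG00000050944, are counted singly and need not be separate genes. Patterns over classes differed between the loci: between pairs of the 7 the correlation over the 31 points ran from -0.569 (ENSSSCG00000048856 and ENSSSCG00000044270) to 0.476 (ENSSSCG00000042676 and ENSSSCG00000033204). ENSSSCG00000048856 and ENSSSCG00000050402 shared CNT as leading class and correlated at 0.188.

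**Figure D5:**
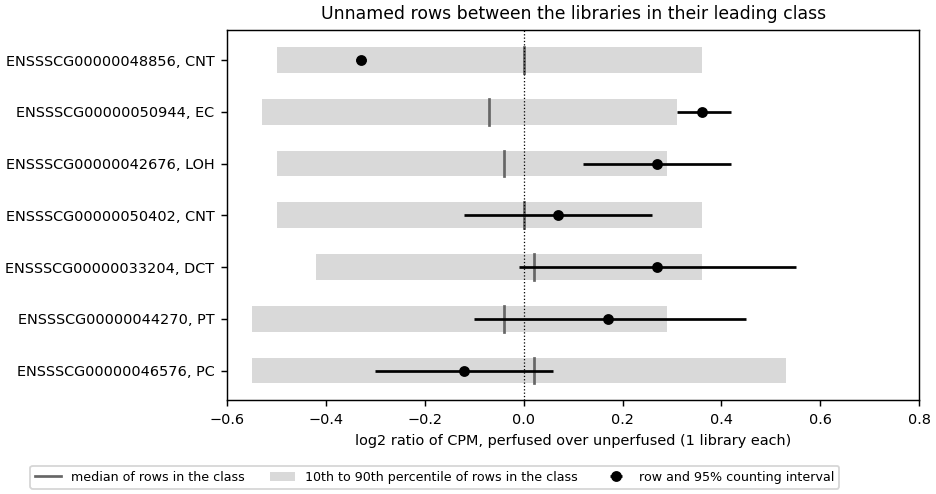
Log2 ratio of perfused over unperfused CPM (x axis) of each locus (y axis, with its leading class), with its 95% interval for counting error; grey bars span the 10th to 90th percentile of the rows with at least 100 UMIs in that class and ticks their median. All 7 points lie between -0.33 and 0.36, inside 2-fold in either direction.

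Between the libraries no locus passed 2-fold, either in its leading class as a whole or over all kept nuclei. Among all rows with at least 100 UMIs the share past 2-fold in either direction was 6.74% over all kept nuclei, 2.52% in CNT, 1.49% in DCT, 1.83% in EC, 2.24% in LOH, 4.92% in PC and 4.71% in PT, so few rows of any kind passed. The median log2 ratio of those rows lay between -0.07 and 0.02 in these classes. In its leading class the ratio was above 0 for 5 loci and below 0 for ENSSSCG00000048856 and ENSSSCG00000046576. The interval excluded 0 for ENSSSCG00000048856, ENSSSCG00000050944 and ENSSSCG00000042676, the loci with the most UMIs in their leading class. At a resolution of 1.0 the interval for ENSSSCG00000042676 included 0 in the LOH cluster with most of its UMIs. For ENSSSCG00000050944 at that resolution, 1 EC cluster, with 178 and 306 UMIs, was past 2-fold at 1.18 (0.91 to 1.45). The EC cluster with most of its UMIs, 4898 and 4501, was at 0.37 (0.31 to 0.43), and that with 805 and 844 at 0.16 (0.02 to 0.30). ENSSSCG00000050944, at 0.36, lay above the 10th to 90th percentile of EC rows, -0.53 to 0.31.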

How the data were processed

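Nuclei were isolated from frozen cortex and sequenced with droplet chemistry that reads the 3′ end of transcripts. The authors deposited UMI counts per gene and barcode, made with Cell Ranger 5.0.1 against release 103 of the Ensembl pig genome with intronic reads counted, and with no normalization. An identifier table added 822 symbols to the deposited ones. Limits on barcodes were 500 and 6000 detected genes and a mitochondrial share of 7%, and Scrublet (scanpy 1.11.5) then took out 641 and 489 doublets. Both libraries were integrated and clustered in Seurat 5.3.0 (R 4.3.3) with 2000 variable genes, 15 principal components and a resolution of 0.5, and the 7 loci were kept out of the variable genes. Clusters were named from 129 markers in 16 lists, of which 121 are in the files. A name needed 3 markers with a log2 fold above 1 and 10% detection. No other list could have more genes among the 10 leading rows, and a cluster of low depth needed a gene of its own list there. Cluster 13 had 4 raised markers of its best list but failed the condition on leading rows. Levels are counts summed over a class per 1000000 UMIs. The leading class had the highest mean level over both libraries. Named genes were the loci, the 5 symbols most like each in pattern and the markers of its leading class. Neighbouring rows and the genes that lead a cluster fall outside that rule, having been picked once their values were known. The loci and lists were chosen with earlier results of these data known. Because each condition had 1 library, no test across genes was run, and edgeR 4.0.16 and DESeq2 1.42.0 gave size factors only. Scripts were tested on simulated data in Python 3.11.15 (numpy 2.4.6, scipy 1.17.1, pandas 2.3.3). SoupX needs empty droplets, which were not used here.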

Additional observations from a re-analysis of the deposited data

Results flagged for a closer look

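ENSSSCG00000046576, the locus of principal cells, moved in opposite directions in different classes between the unperfused and the perfused library, and the difference between these classes was not tested, since each condition had 1 library. Its log2 ratio of perfused over unperfused CPM was 1.83 (0.07 to 3.93) in EC, from 4 and 11 UMIs, 1.08 in IC-A, from 55 and 78 UMIs, and 1.31 (0.04 to 2.78) in unnamed cluster 14, from 7 and 22 UMIs. It was -1.66 (-3.67 to -0.08) in CNT, from 20 and 4 UMIs, -1.68 in IC-B, from 67 and 15 UMIs, and -1.05 (-1.91 to -0.17) in unnamed cluster 11, from 21 and 29 UMIs. These 6 intervals cover counting error only, take the UMIs of 1 nucleus as independent, and each excludes 0. They are those of 13 classes with a ratio whose interval did so. The UMIs lay in 20 and 5 nuclei in IC-B and in 27 and 21 in IC-A. Counted as nuclei with a UMI, the intervals of the libraries overlapped in IC-B, at 17.9% (11.3 to 26.2) and 8.33% (2.76 to 18.4). They also overlapped in IC-A, at 9.03% (6.04 to 12.9) and 15.7% (9.97 to 23). In EC the counts were 0.452 and 1.82 times the free RNA estimate, in cluster 14 they were 0.46 and 1.28 times, in cluster 11 1.53 and 0.762 times and in CNT 3.6 and 1.38 times, against 14.4 and 21.9 times in IC-A and 63.2 and 18 times in IC-B. In clusters 11 and 14 the estimate cannot be read this way, since LRP2 and CUBN are among its genes and were not low there. CUBN stood at 5054 and 6343 CPM in cluster 11 and at 5208 and 5862 CPM in PT. LRP2 stood at 2597 and 2690 CPM in cluster 14 and at 3595 and 3777 CPM in PT. The part of free RNA in these ratios was not tested. In an alternative chosen after seeing the data, the nucleus richest in the locus was left out of each library. The ratio was then 1.12 (0.56 to 1.69) in IC-A and -2.10 (-3.30 to -1.07) in IC-B, so these 2 kept their sides. In unnamed clusters 14 and 11 it was 1.26 (-0.28 to 3.07) and -0.89 (-1.85 to 0.11), where the intervals include 0. The values of 2.54 in EC and -1.92 in CNT have no interval and are not read. The nucleus left out held 2 of the 4 unperfused UMIs in EC and 2 of the 4 perfused UMIs in CNT, which left fewer than 3 counts. IC-B held 112 unperfused and 60 perfused nuclei.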

How the results depend on the processing

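With 1 library per condition no difference here has a replicate check, and spread between animals or preparations is unknown. No paired analysis was possible because each condition had 1 library and no replicate number links samples. The log2 ratio in the leading class, over 13 alternatives (14 for ENSSSCG00000033204), ran from -0.41 to -0.28 for ENSSSCG00000048856, from 0.35 to 0.49 for ENSSSCG00000050944, from 0.13 to 0.45 for ENSSSCG00000042676 and from 0.22 to 0.63 for ENSSSCG00000033204, each on 1 side of 0. ENSSSCG00000044270 ran from -0.30 to 0.27 and ENSSSCG00000046576 from -0.14 to 0.04, with the same sign in 11 of 13. ENSSSCG00000050402 ran from 0.03 to 1.42. The 1.42 came from leaving out nuclei with a marker of another lineage, which left 14.5% and 14.8% of CNT nuclei with 31 and 49 of its UMIs and put 1 of the 7 loci past 2-fold. It was 0.37 as a mean over nuclei and 0.68 after thinning to 1000 UMIs. The cause was not tested. For 6 of 7 loci the leading class was the same in every alternative. For ENSSSCG00000048856 it became DCT under the mean over nuclei, thinning, subtraction of free RNA and removal of nuclei with markers of other lineages. It stayed CNT when the free RNA of DCT was estimated from LRP2 and CUBN alone and that of the other classes as before. This alternative was chosen after seeing the data, like the removal of the richest nucleus. Under it, with called doublets kept and without integration, CNT came first in both libraries for ENSSSCG00000048856. After subtraction of free RNA from the 4 tubular genes DCT came first in both. With rows of at least 20 instead of 100 UMIs, the number past 2-fold was 2389 over all kept nuclei (1033 before), 1006 in CNT (144), 761 in DCT (72), 885 in EC (124), 1054 in LOH (197), 1127 in PC (165) and 1552 in PT (486). Of the 35 like-pattern genes 19 were the same with an offset of 1 CPM and 4 with Spearman's correlation, so these lists depend on the measure.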
